A study of Homo sapiens with 12 samples.

Results

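Notch signalling was described through 10 genes: the ligand genes JAG1, JAG2, DLL1 and DLL4, the receptor genes NOTCH1, NOTCH2 and NOTCH3, and the target genes HES1, HEY1 and HEY2. They are 10 of the 57820 gene identifiers in the deposited tables. They were picked by name, as known members of the pathway, and each was matched to its row by Ensembl identifier without the version number. No cut on a measured value entered that match, but the list was drawn up with results of these libraries in view, and which values led to it is not recorded. The adjusted p-values below therefore describe these genes within a fit across all genes, and counts of members are not independent evidence. Of the 10 genes, 8 passed the filter on low counts, and DLL1 and HEY2 did not. JAG1, HES1 and HEY1 passed it only through the libraries in which they were high, so they had to differ between the cell states.

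The study used G401, a rhabdoid tumour cell line whose genotype is given as SMARCB1(-/-). SMARCB1 belongs to the core of the SWI/SNF, or BAF, complexes, which remodel chromatin, and its loss defines most rhabdoid tumours. Doxycycline induction gave cells with GFP, the control protein, or cells with SMARCB1. Each of these was kept for 24 h with DMSO, the solvent, or with dBRD9-A, a compound that causes degradation of BRD9, which is found only in the non-canonical form of BAF. The 4 groups, called GFP cells and SMARCB1 cells in DMSO or dBRD9-A, had 3 replicates each, so there were 12 libraries. All of them share the G401 line, its missing endogenous SMARCB1 and the doxycycline induction. All values come from 1 cell line, and the labels do not say whether replicates were separate cultures, so p-values measure the spread between these samples, which may be technical.

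In Notch signalling, a ligand of the Jagged or Delta family on one cell binds a Notch receptor on its neighbour. The receptor is then cut, first by an ADAM metalloprotease and then by gamma-secretase, and the freed intracellular domain moves to the nucleus. There it joins the DNA-binding protein RBPJ and a Mastermind coactivator and switches on targets, of which the HES and HEY families of repressors are the best known. A cell that carries ligand can also dampen the receptors on its own surface. In development the pathway sets cell fate in many tissues, the kidney among them.

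The gene counts of a library summed to 34.97 to 58.54 megacounts (1e6 counts each). Levels are given as counts per megacount (CPM) on library sizes scaled with TMM factors, and 3 counts, here 0.0513 to 0.0858 CPM, were taken as the floor of detection. SMARCB1 checked the labels: it had 0 to 2 counts in each of the 6 GFP libraries, and SMARCB1 libraries held 1807 to 1912 CPM in DMSO and 1277 to 1327 CPM with dBRD9-A. The induced SMARCB1 level was thus lower with the degrader, and the part of this in the results below was not tested. VIM, KRT8 and KRT18, markers of rhabdoid cells, were each at 1256 CPM or more in every library, while MUC1 stayed at 0.0504 to 0.302 CPM.

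RBPJ binds the sequence GTGGGAA, and matches to it in the promoters of the HES and HEY genes are shown here because these genes are the read-out of the pathway. The 250 bases before the transcription start were searched on both strands, as GTGGGAA or its reverse complement TTCCCAC, in the RefSeq promoter table for GRCh38.p14. Of 35116 promoters of all genes, 5.43% held a match. Among the members, 8 were in the table, and HES1 and HEY2 had a match. Among the other target genes and relatives listed below, 9 were in the table and HES4, HES5 and HEYL had one. A stretch of 200 bases of the HES1 promoter, ending at position -6 (the base just before the start is -1; chr3:194135943-194136142, + strand), is printed first, then 30 bases around the match in HES1 (chr3:194136055-194136084, + strand), HES4 (chr1:1000153-1000182, - strand) and HEY2 (chr6:125749411-125749440, + strand). Each runs 5′ to 3′ on the strand of its gene, and capitals mark the match.
HES1 promoter: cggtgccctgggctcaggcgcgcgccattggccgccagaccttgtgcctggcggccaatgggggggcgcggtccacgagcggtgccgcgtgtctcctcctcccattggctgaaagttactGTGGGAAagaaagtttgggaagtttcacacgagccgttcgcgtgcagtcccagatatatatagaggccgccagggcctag
HES1 site: aagttactGTGGGAAagaaagtttgggaag
HES4 site: gggcgagtGTGGGAAagaatgcggagccgg
HEY2 site: cggccgcgTTCCCACgcctcggctggagcc
The matches in HES1 and HES4 began at nearly the same distance from the start, at positions -85 and -77. The match in HEY2 lay farther away, at -213, and on the opposite strand. The N-box CACNAG, which HES proteins themselves can bind, occurred 3 times in the 250 bases before HES1 and not in those of HES4 or HEY2, against a share of 32.0% of all promoters with at least 1, again on both strands. A match describes the letters only, and binding was not measured.

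**Figure D1:**
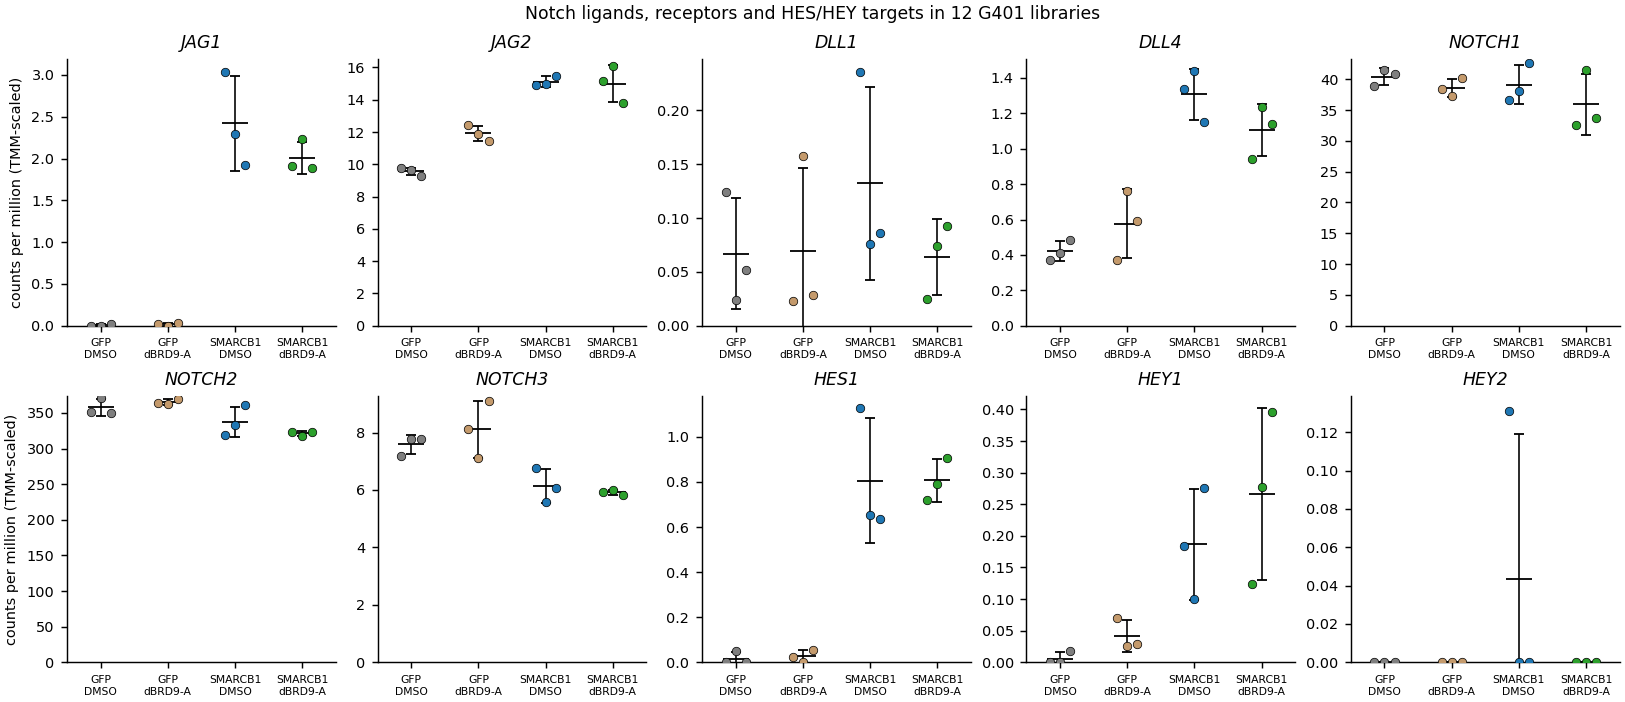
Level of each of the 10 genes in CPM (y axis, linear, from 0, scaled for each gene) in the 4 groups (x axis). Points are libraries, the horizontal bar is the mean and the whiskers are the SD (n = 3). JAG1, HES1 and HEY1 lie at or near 0 in GFP cells and above it in SMARCB1 cells, the 3 receptors change little, and HEY2 has counts in 1 library only.

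The cell states were compared first in DMSO, which asks what the return of SMARCB1 did to Notch gene expression in these cells. JAG1, JAG2, DLL4, HES1 and HEY1 were higher with SMARCB1, and NOTCH3 was slightly lower, a difference that was not called with spike-in scaling. Of the 8 tested members, 5 were higher and 1 was lower at an adjusted p under 0.05, beside 33.5% and 31.6% of all 15750 tested genes, 65.0% together. The median log2 fold change of the 8 was 1.14, against -0.005 over all tested genes. Nothing is read from these counts and medians, because 3 of the members could pass the filter only by differing.

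JAG1 (ENSG00000101384.7) encodes the ligand Jagged1, which is mutated in Alagille syndrome. GFP cells in DMSO had 0, 0 and 1 counts of it, and SMARCB1 cells in DMSO had 116, 91 and 112, or 3.04, 2.29 and 1.93 CPM. In dBRD9-A, GFP cells had 1, 0 and 1 counts and SMARCB1 cells had 77, 121 and 81, or 1.91, 2.23 and 1.88 CPM. All GFP libraries were thus under the floor and all SMARCB1 libraries far above it, with no overlap. The ratio of summed counts, scaled for library size, was 364.5 in DMSO (exact 95% counting interval 64.96 to 14440) and 117.9 in dBRD9-A (32.33 to 978.3). Counting intervals and the floor leave out other sources of error, as the reads carried no molecular identifiers. edgeR's adjusted p was 3.39e-11 in DMSO and 3.94e-10 in dBRD9-A. Within SMARCB1 cells, the means of 2.42 ± 0.565 CPM in DMSO and 2.01 ± 0.193 CPM in dBRD9-A (SD, n = 3) overlapped, and the log2 difference was -0.24 (SE 0.18, adjusted p = 0.647).

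JAG2 (ENSG00000184916.4), the other Jagged ligand, was already expressed without SMARCB1. In GFP cells its level was 9.75, 9.65 and 9.30 CPM in DMSO and 12.42, 11.85 and 11.47 CPM in dBRD9-A. SMARCB1 cells had 14.92, 14.95 and 15.50 CPM in DMSO and 15.14, 16.10 and 13.77 CPM in dBRD9-A. The order therefore ran from GFP cells in DMSO through GFP cells with dBRD9-A to SMARCB1 cells, and only the last pair, SMARCB1 cells with and without the degrader, overlapped. JAG2 was higher with SMARCB1 by 0.66 on the log2 scale in DMSO (SE 0.06, adjusted p = 3.08e-08) and by 0.33 in dBRD9-A (SE 0.06, adjusted p = 0.000123). When libraries were scaled to spike-in RNA, the median of all genes in the dBRD9-A comparison moved to -0.32 and the value of JAG2 there to 0.01 (adjusted p = 0.945).

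DLL4 (ENSG00000128917.5) encodes a Delta ligand best known from the tips of growing blood vessels. In DMSO it had 0.373, 0.412 and 0.484 CPM in GFP cells and 1.34, 1.44 and 1.15 CPM in SMARCB1 cells. In dBRD9-A it had 0.374, 0.764 and 0.593 CPM in GFP cells and 0.945, 1.24 and 1.14 CPM in SMARCB1 cells. The GFP libraries lay below the SMARCB1 libraries in either treatment, whereas the treatments overlapped within each cell state. Its log2 fold change with SMARCB1 was 1.61 in DMSO (SE 0.23, adjusted p = 8.72e-06) and 0.96 in dBRD9-A (SE 0.24, adjusted p = 0.00182). These levels rest on 16 to 67 counts per library.

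DLL1 (ENSG00000198719.7), a Delta ligand of early development, was near the floor in all groups. It had 7, 1 and 3 counts in GFP cells in DMSO, 9, 3 and 5 in SMARCB1 cells in DMSO, 1, 6 and 1 in GFP cells with dBRD9-A and 1, 4 and 4 in SMARCB1 cells with dBRD9-A. The groups overlapped, and a difference was not detectable at this depth. DLL1 overlaps FAM120B on the opposite strand, which had 845 to 1467 counts.

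The ligands can be compared with each other only per length, as CPM per kilobase of merged GENCODE release 29 exons. On that scale, in GFP cells in DMSO, JAG2 had a level of 1.495 ± 0.0368, DLL4 of 0.0889 ± 0.0118, DLL1 of 0.0207 ± 0.0160 and JAG1 of 0.000620 ± 0.00107 (SD, n = 3). In SMARCB1 cells in DMSO, JAG2 had 2.36 ± 0.0511, DLL4 0.275 ± 0.0302, JAG1 0.260 ± 0.0608 and DLL1 0.0410 ± 0.0278 (SD, n = 3). JAG2 was the most abundant ligand of the 4 in both cell states, and JAG1 moved from the lowest place to a level that overlapped that of DLL4.

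The receptors bind these ligands and release the intracellular domain. NOTCH1 (ENSG00000148400.9) was, in DMSO, at 38.9, 41.4 and 40.9 CPM in GFP cells and at 36.6, 38.1 and 42.7 CPM in SMARCB1 cells. In dBRD9-A it was at 38.4, 37.2 and 40.1 CPM in GFP cells and at 32.5, 41.6 and 33.6 CPM in SMARCB1 cells. The groups overlapped, and the log2 fold change with SMARCB1 was -0.04 in DMSO (SE 0.07, adjusted p = 0.651) and -0.10 in dBRD9-A (SE 0.08, adjusted p = 0.28). The second SMARCB1 replicate in dBRD9-A stood above the other 2, and without it the second value was -0.22 (adjusted p = 0.00293). With spike-in scaling, which moved the median of all genes in the DMSO comparison to 0.17 and in the dBRD9-A comparison to -0.32, the values were 0.13 (adjusted p = 0.19) and -0.43 (adjusted p = 2.32e-05).

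NOTCH2 (ENSG00000134250.13), the receptor that acts with Jagged1 in kidney and bile duct development, was the most abundant. In GFP cells it was at 351.8, 371.5 and 350.0 CPM in DMSO and at 363.7, 362.8 and 370.2 CPM in dBRD9-A. In SMARCB1 cells it was at 319.6, 332.4 and 360.5 CPM in DMSO and at 322.6, 317.4 and 323.9 CPM in dBRD9-A. The cell states overlapped in DMSO and did not overlap in dBRD9-A. The log2 fold change with SMARCB1 was -0.08 in DMSO (SE 0.04, adjusted p = 0.0556) and -0.19 in dBRD9-A (SE 0.04, adjusted p = 0.000256). The DMSO value became a call without the third SMARCB1 replicate (-0.13, adjusted p = 0.00171) or without the third GFP replicate (adjusted p = 0.0482), with no filter on low counts (-0.09, adjusted p = 0.011) and with upper-quartile scaling (-0.09, adjusted p = 0.0371). It was 0.09 with spike-in scaling (adjusted p = 0.309). NOTCH2 has near-identical partial copies in the human genome, so its counts depend on how the authors' counting shared reads between them.

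NOTCH3 (ENSG00000074181.4), a receptor of vascular smooth muscle and pericytes, was, in DMSO, at 7.19, 7.78 and 7.78 CPM in GFP cells and 6.78, 5.60 and 6.06 CPM in SMARCB1 cells. In dBRD9-A it was at 8.14, 7.11 and 9.09 CPM in GFP cells and 5.92, 6.01 and 5.82 CPM in SMARCB1 cells. It was lower with SMARCB1 in either treatment, without overlap, and the treatments overlapped within each cell state. The log2 fold change was -0.30 in DMSO (SE 0.09, adjusted p = 0.00629) and -0.45 in dBRD9-A (SE 0.09, adjusted p = 0.000318). With spike-in scaling the DMSO value was -0.13 (adjusted p = 0.324). Per kilobase of exon, NOTCH2 stood at 21.3 ± 0.709 CPM in GFP cells in DMSO, NOTCH1 at 3.89 ± 0.130 and NOTCH3 at 0.807 ± 0.0362 (SD, n = 3), and this order was the same in all 4 groups.

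HES and HEY proteins repress transcription and carry the signal onward. HES1 (ENSG00000114315.3), the classic direct target of the pathway and the gene whose promoter is printed above, had 0, 2 and 0 counts in GFP cells in DMSO and 43, 26 and 37 in SMARCB1 cells in DMSO. In dBRD9-A the counts were 1, 0 and 2 in GFP cells and 29, 43 and 39 in SMARCB1 cells. All GFP libraries were under the floor, and the SMARCB1 libraries, at 0.637 to 1.13 CPM, did not overlap them. The ratio of summed counts was 60.57 in DMSO (exact 95% counting interval 16.36 to 506.6, edgeR adjusted p = 2.56e-07) and 31.27 in dBRD9-A (10.43 to 153.9, adjusted p = 1.31e-06). In SMARCB1 cells HES1 averaged 0.806 ± 0.277 CPM in DMSO and 0.807 ± 0.0941 CPM in dBRD9-A (SD, n = 3), and the log2 difference was 0.03 (SE 0.31, adjusted p = 0.987).

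HEY1 (ENSG00000164683.12), a target in vessels and bone, had 0, 0 and 1 counts in GFP cells in DMSO and 7, 4 and 16 in SMARCB1 cells in DMSO. In dBRD9-A it had 3, 1 and 1 counts in GFP cells and 5, 15 and 17 in SMARCB1 cells. No SMARCB1 library was as low as any GFP library of the same treatment, but the counts were small and spread over a wide range. The ratio of summed counts was 30.85 in DMSO (5.086 to 1263, adjusted p = 0.000284) and 6.254 in dBRD9-A (2.452 to 20.39, adjusted p = 0.00219). HEY2 (ENSG00000135547.4), which has its main role in the heart and arteries, had 5 counts in the first SMARCB1 replicate in DMSO and 0 in the other 11 libraries. A difference in HEY2 was not detectable at this depth. The match in its promoter is printed above.

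In bulk RNA, a change in the share of cells that express a gene and a change in the RNA per cell cannot be told apart. Markers of other cell types were read beside these results. PECAM1 was not matched, and the other 3 of 4 endothelial markers (CDH5, VWF and TEK) summed to 0.0178 to 0.121 CPM in GFP cells in DMSO, 0.731 to 1.15 in SMARCB1 cells in DMSO, 0 to 0.0847 in GFP cells with dBRD9-A and 0.609 to 0.907 in SMARCB1 cells with dBRD9-A. The sum thus moved with JAG1, DLL4, HES1 and HEY1, and most of it was VWF. TEK stayed at or under the floor, with 0 to 2 counts in GFP libraries and 0 to 3 in SMARCB1 libraries. CDH5, the defining cadherin of endothelium, was at 0 in all GFP libraries and at 3 to 10 counts in SMARCB1 libraries. All 3 skeletal muscle markers were matched. Their sum moved the same way, from 0.138 to 0.452 CPM in GFP libraries to 1.20 to 1.79 CPM in SMARCB1 libraries. All of it was DES, since MYOD1 and MYOG were at 0. Of the immune markers, PTPRC and CD3E were at 0, while CD68 was at 163.1 to 198.9 CPM in GFP libraries and 57.4 to 67.2 CPM in SMARCB1 libraries. The 2 erythroid markers summed to at most 0.132 CPM in GFP libraries and 0.298 CPM in SMARCB1 libraries. The part of these genes' cell types in the Notch results was not tested.

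The comparison of the cell states in dBRD9-A used none of the libraries of the DMSO comparison. The filter on low counts and the estimate of the spread, however, came from all 12 libraries. There, 5 of the 8 tested members were higher and 2 lower, beside 33.0% and 30.4% of all tested genes, 63.3% together. The 5 higher and 1 lower member of the DMSO comparison had the same direction, and NOTCH2 was the further lower member. Nothing is read from these counts or from the shared direction, because JAG1, HES1 and HEY1 passed the filter only through SMARCB1 libraries. Agreement between these comparisons was general, since 8685 of the 8728 genes called in both had the same direction, or 99.5%.

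**Figure D2:**
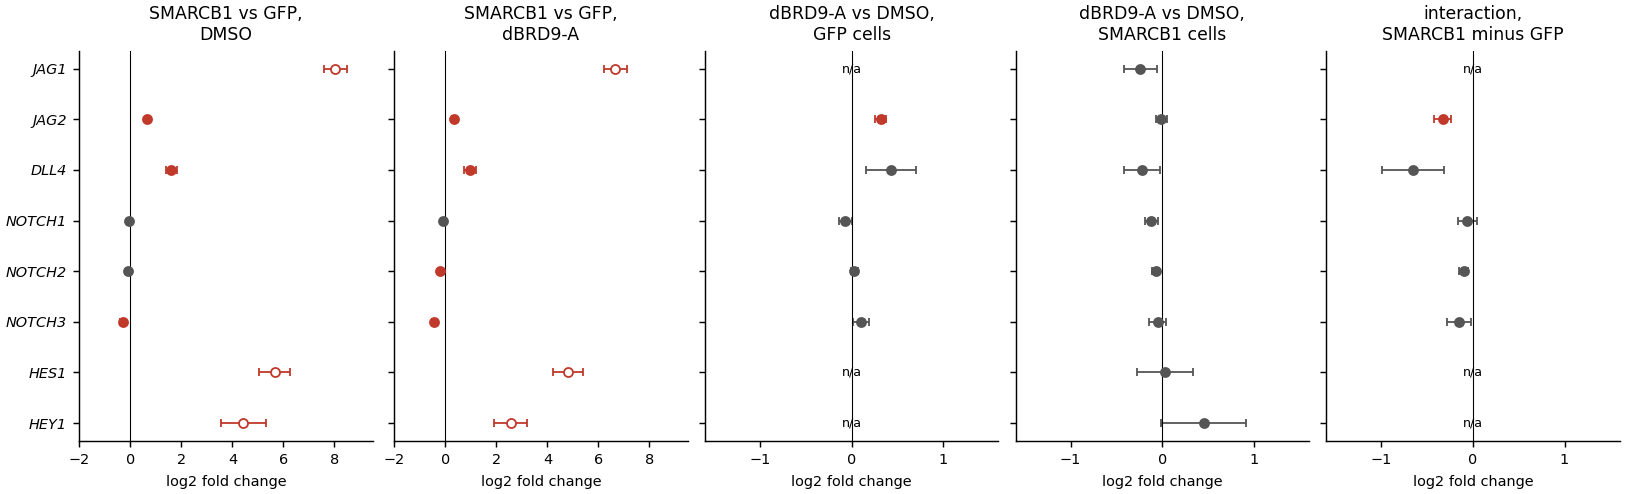
Log2 fold change (x axis, with SE as whiskers) of the 8 tested members (y axis) in each comparison and in the interaction, with wider x axes for the cell states than for the degrader. Red points have an edgeR adjusted p under 0.05, open points have 1 group at or under the floor, so that their fitted value is no bound, and n/a marks genes whose fitted value rests on groups at or under the floor and is not shown. JAG1, HES1 and HEY1 are far to the right in both cell state comparisons. In the panels of dBRD9-A against DMSO only JAG2 in GFP cells is red, and in the interaction only JAG2 is red.

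The second question of the design was the response to dBRD9-A within each cell state. In GFP cells JAG2 alone was called among the 8 tested members, beside 15.9% of all genes. It rose by 0.32 on the log2 scale (SE 0.06, adjusted p = 0.00203), or 1.25-fold, and the 3 treated libraries lay above the 3 in DMSO. JAG1, HES1 and HEY1 were at or under the floor in both groups, so their fitted values (adjusted p from 0.248 to 0.718) are not given as folds. The values of the others were 0.43 for DLL4 (SE 0.27), -0.07 for NOTCH1 (SE 0.07), 0.03 for NOTCH2 (SE 0.04) and 0.10 for NOTCH3 (SE 0.09), with adjusted p from 0.334 to 0.637. These values are relative to the bulk of genes. Spike-in scaling moved the median of all genes in GFP cells with dBRD9-A to 0.36, and on that scale NOTCH1 was 0.29, NOTCH2 0.39, NOTCH3 0.46 and DLL4 0.78, each with an adjusted p under 0.05.

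In SMARCB1 cells none of the 8 was called by edgeR, beside 1.93% of all genes, and none had an unadjusted p under 0.05. DESeq2 called none either, but it gave no adjusted p for DLL4, HES1 and HEY1. The edgeR values ran from -0.24 for JAG1 to 0.45 for HEY1 (SE 0.46, adjusted p = 0.766). JAG2 stood at -0.01 (SE 0.06, adjusted p = 0.97), DLL4 at -0.22 (SE 0.20, adjusted p = 0.731) and NOTCH1 at -0.12 (SE 0.07, adjusted p = 0.543). Without the second SMARCB1 replicate in dBRD9-A, NOTCH1 was -0.25 and became a call (adjusted p = 0.0254).

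The interaction compares the responses of the cell states directly. JAG2 alone was called among the members, beside 3.8% of all genes, at -0.33 (SE 0.09, adjusted p = 0.0408), so its rise in GFP cells exceeded its response in SMARCB1 cells. The same number says that the SMARCB1 effect on JAG2 was smaller in dBRD9-A than in DMSO. The call was narrow: the adjusted p was 0.0592 with DESeq2, and leaving out any 1 library other than the second SMARCB1 replicate in dBRD9-A put it above 0.05, at most at 0.118. DLL4 had an interaction of -0.65 (SE 0.34, adjusted p = 0.37), and the receptors had -0.06 to -0.15. With spike-in scaling, which moved the median of all genes to -0.49, these became calls, at -1.15 for DLL4 (adjusted p = 0.00425), -0.56 for NOTCH1 (adjusted p = 9.16e-05), -0.60 for NOTCH2 (adjusted p = 7.38e-06) and -0.65 for NOTCH3 (adjusted p = 0.000459). For JAG1, HES1 and HEY1 the fitted interaction rests on GFP groups at or under the floor and is not given as a value (adjusted p from 0.532 to 0.82).

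**Figure D3:**
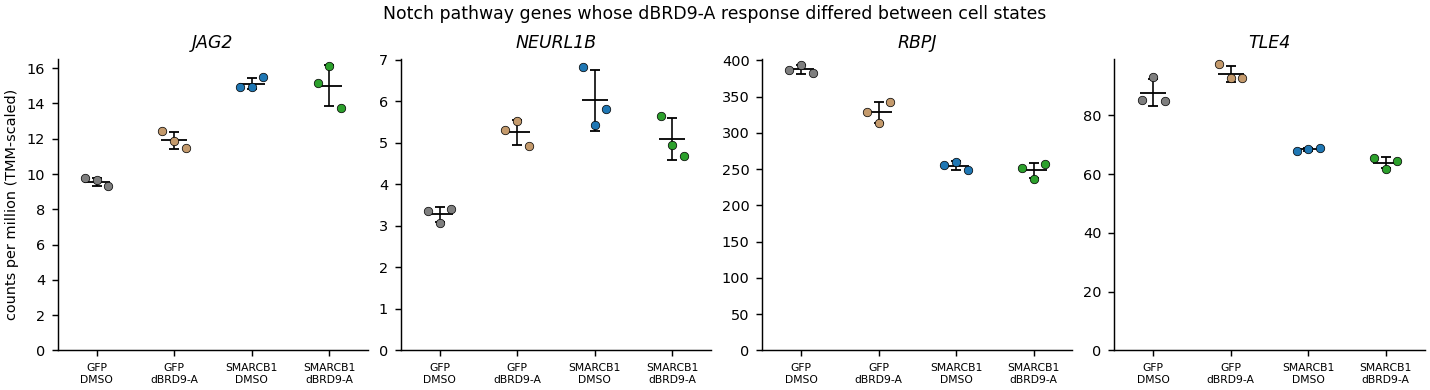
Level in CPM (y axis, linear, from 0) of the 4 genes of the pathway, member or not, whose interaction was called, in the 4 groups (x axis), with libraries as points, means as bars and SD as whiskers (n = 3). In the interaction 3.8% of all genes were called. JAG2 and NEURL1B rise with dBRD9-A in GFP cells toward the SMARCB1 level. RBPJ falls toward it (with spike-in scaling it does not), and TLE4 moves slightly apart.

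Beyond the members, 48 other genes of the pathway were listed by role, and 41 of them were tested. In DMSO 21 were higher with SMARCB1, 15 were lower and 5 were not called, beside 65.0% of all genes called there. Their median log2 fold change was 0.14. In dBRD9-A 17 were higher and 15 lower with SMARCB1, beside 63.3% of all genes called. Nothing is read from these cell state counts and the median. Some of the genes passed the filter only through the cell state in which they were high, so they had to differ. Among these were MAML2, NEURL1, HES2, DLK1, MFNG and DTX4. The degrader changed 10 in GFP cells, 5 in each direction, beside 15.9% of all genes. In SMARCB1 cells it changed none of the 41 by edgeR, beside 1.93% of all genes, and 5 had an unadjusted p under 0.05. DESeq2 called none there, but it gave an adjusted p to only 35 of the 47 other pathway genes it fitted. The genes named next are the 2 largest called changes per role in DMSO at a mean of at least 50 counts, unless said otherwise.

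Genes of ligand and receptor handling changed in both directions. The counts per role, here and below, stand beside 33.5% of all genes called higher and 31.6% called lower in DMSO. Nothing is read from these counts. Of 3 other ligand genes, 2 fell and 1 rose. DLL3, an unusual Delta protein that inhibits signalling, fell by 0.50 on the log2 scale (SE 0.09, adjusted p = 8.34e-05), and DLK2, a Delta-like protein, rose by 0.49 (SE 0.17, adjusted p = 0.0155), a call that was lost with DESeq2 (adjusted p = 0.0506) and without the second GFP or the third SMARCB1 replicate in DMSO. Of 9 genes for ligand endocytosis and receptor glycosylation, 4 rose and 4 fell. NEURL1B, a ubiquitin ligase that drives ligand uptake, rose by 0.87 (SE 0.10, adjusted p = 8.05e-07), and POFUT1, which adds the fucose that receptors need for ligand binding, rose by 0.66 (SE 0.03, adjusted p = 9.68e-13). Of 8 genes for receptor cleavage, 4 rose and 1 fell. ADAM10, the protease of the first cut, rose from 111.6 ± 2.86 to 172.7 ± 1.23 CPM (SD, n = 3; log2 fold change 0.63, SE 0.03, adjusted p = 8.75e-13).

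Of 8 tested genes for the nuclear complex and its corepressors, 4 rose and 3 fell, beside 33.5% and 31.6% of all genes. TLE1, a Groucho corepressor that HES proteins recruit, was at 3.23, 3.18 and 3.30 CPM in GFP cells and 129.9, 121.3 and 130.5 CPM in SMARCB1 cells in DMSO (log2 fold change 5.29, SE 0.07, adjusted p = 2.45e-20). Its relative TLE3 went the other way, from 10.6, 11.1 and 10.6 CPM to 0.916, 1.08 and 0.809 CPM (-3.54, SE 0.11, adjusted p = 7.95e-15). Outside the naming rule, and chosen after their values were seen, RBPJ itself fell by 0.61 (SE 0.04, adjusted p = 6.62e-11), and the coactivator MAML2 had 7 counts summed over the GFP libraries and 156 over the SMARCB1 libraries, a ratio of 25.47 (exact 95% counting interval 12.07 to 64.39). Of 8 tested genes for receptor turnover and inhibition, 6 rose and 2 fell, beside the same shares of all genes. Among them were DTX3L with 1.26 (SE 0.04, adjusted p = 4.34e-15) and DTX3 with -0.59 (SE 0.07, adjusted p = 8.15e-07), relatives of the Notch regulator Deltex.

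**Figure D4:**
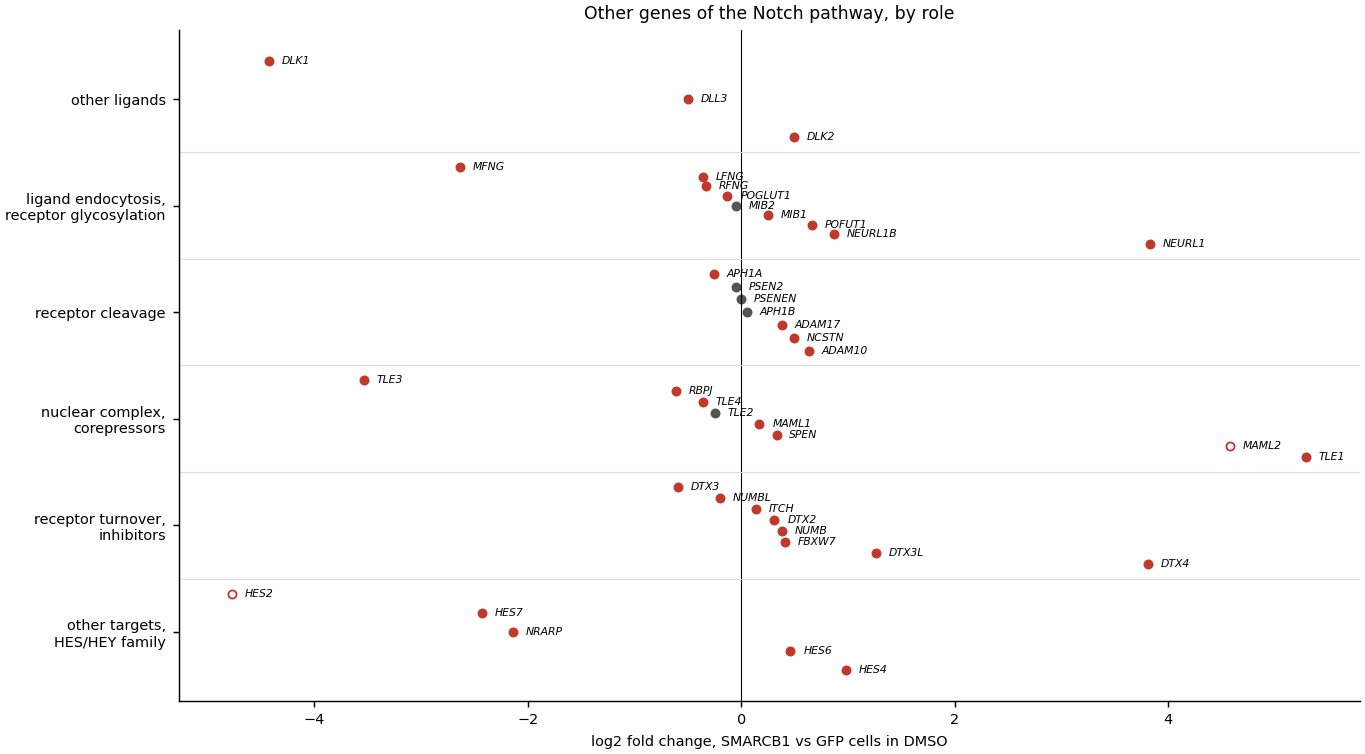
Log2 fold change with SMARCB1 in DMSO (x axis) of 40 of the 41 tested genes of the pathway that are not members, by role (y axis; height within a role only separates the labels). Red points have an edgeR adjusted p under 0.05 and open points have 1 group at or under the floor. Every role holds points on both sides of 0, and TLE1 and MAML2 lie farthest to the right.

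Further large changes sat below 50 mean counts and were also chosen after their values were seen. DLK1, a non-canonical ligand of progenitor cells, fell by 4.43 on the log2 scale (SE 0.35, adjusted p = 4.04e-09), and MFNG, a fringe glycosyltransferase, fell by 2.64 (SE 0.42, adjusted p = 2.45e-05). NEURL1 rose by 3.83 (SE 0.46, adjusted p = 9.59e-07), as did DTX4 by 3.81 (SE 0.28, adjusted p = 1.29e-09). The lower group was near the floor in each case. In DMSO, SMARCB1 libraries had 2 to 4 counts of DLK1 and 2 to 6 of MFNG. GFP libraries in DMSO had 0 to 7 counts of NEURL1 and 4 to 11 of DTX4. The sizes of these 4 changes therefore rest on few counts.

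The other targets and HES/HEY relatives moved in both directions. Of 9 listed, 5 were tested, of which 2 rose (HES4 and HES6) and 3 fell (HES2, HES7 and NRARP) with SMARCB1 in DMSO. All tested genes were called higher there in 33.5% and lower in 31.6%. HES2 passed the filter on low counts only through GFP cells. NRARP, a target that feeds back to inhibit the receptor complex, was at 3.92, 3.95 and 3.73 CPM in GFP cells and 0.838, 1.06 and 0.757 CPM in SMARCB1 cells (-2.14, SE 0.14, adjusted p = 3.29e-10). HES7, a gene of the segmentation clock, fell by 2.43 (SE 0.21, adjusted p = 1.58e-08). HES2, HES4 and HES6 were chosen after their values were seen. HES6 rose by 0.46 (SE 0.07, adjusted p = 3.48e-05). HES4, whose promoter match is printed above, rose from 1.94, 2.16 and 2.20 CPM to 4.42, 3.71 and 4.23 CPM (0.98, SE 0.17, adjusted p = 6.61e-05), and HES2 fell from 200 to 6 summed counts, a ratio of 29.17 (exact 95% counting interval 13.17 to 80.43). NRARP, HES7 and HES2 thus moved opposite to HES1 and HEY1. As for letters in the promoter, HES6, HES2, HES7 and NRARP had no match to GTGGGAA in the 250 bases before the start. Of the RBPJ promoters searched, 1 had 2 matches and the others had none. A relation between such matches and the changes in level was not tested.

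**Figure D5:**
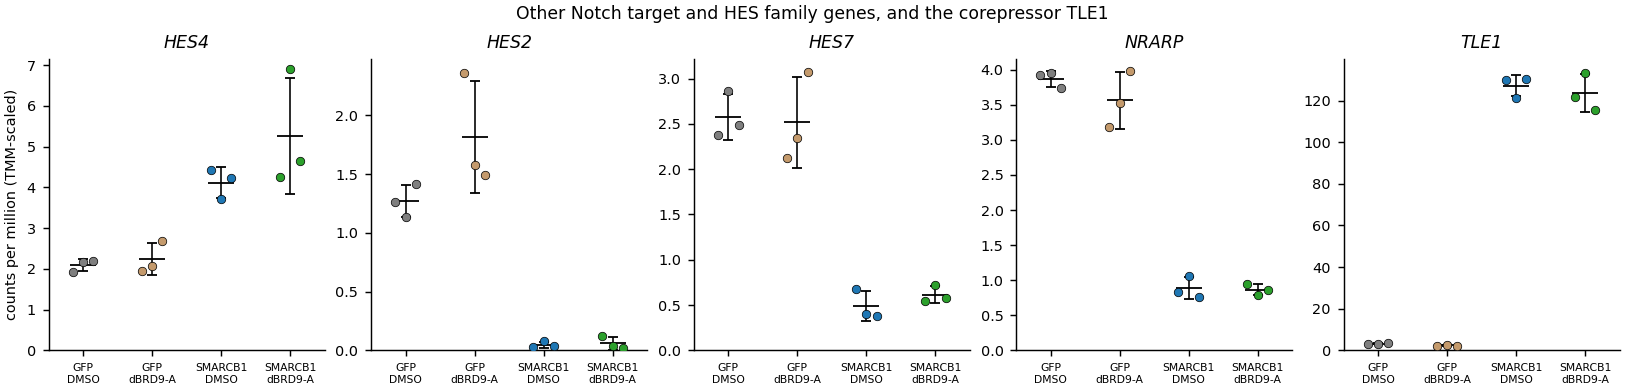
Level in CPM (y axis, linear, from 0, scaled for each gene) of 4 targets and HES relatives and of the corepressor TLE1 in the 4 groups (x axis), with libraries as points, means as bars and SD as whiskers (n = 3). HES4 and TLE1 are higher in SMARCB1 cells, and HES2, HES7 and NRARP are lower, in DMSO and in dBRD9-A.

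Of the 10 other pathway genes called with dBRD9-A in GFP cells, NEURL1B and TLE1 had the largest changes. NEURL1B was at 3.36, 3.08 and 3.41 CPM in DMSO and 5.31, 5.53 and 4.91 CPM with the degrader (0.67, SE 0.11, adjusted p = 0.000233). In SMARCB1 cells it was at 6.83, 5.42 and 5.82 CPM and then 5.64, 4.96 and 4.68 CPM (-0.24, SE 0.10, adjusted p = 0.297). The interaction of -0.92 (SE 0.14, adjusted p = 0.000924) was the largest of the pathway's 4 called ones, beside 3.8% of all genes called. TLE1 fell by 0.42 in GFP cells (SE 0.12, adjusted p = 0.0241), a call that was lost with spike-in scaling (-0.06, adjusted p = 0.667) and without any 1 of 4 libraries, replicates 1 and 3 of both GFP groups. RBPJ fell by 0.24 in GFP cells (SE 0.04, adjusted p = 0.000132) relative to the bulk of genes and stood at 0.12 with spike-in scaling (adjusted p = 0.105). HES2, HES4, HES7 and NRARP were not called in either cell state, with values of -0.12 to 0.51 in GFP cells and adjusted p of at least 0.133.

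For each member with at least 50 mean counts, the single gene outside the pathway with the most similar pattern was found by Pearson's r of log2 CPM over the 12 libraries, among 12545 genes. The libraries fall into 2 cell states, so r is high for any gene that differs between them, and it is a description only. JAG1 was most like CCDC69 (r = 0.998), and 2776 genes reached 0.9. JAG2 was most like PGAP6 (r = 0.984, 1011 genes at 0.9 or more), which went from 23.4 CPM in GFP cells in DMSO to 27.6 with dBRD9-A and 32.1 and 33.9 in SMARCB1 cells. NOTCH3 was most like ZNF567 (r = 0.951, 129 genes), and NOTCH2 was most like HIPK1 (r = 0.961, 26 genes). NOTCH1 was most like FIGNL2 (r = 0.887), and no gene reached 0.9.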

How the data were processed

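RNA was sequenced from the 12 libraries described above, made with a stranded mRNA kit per the labels' protocols. The 3 tables the authors deposited hold expected counts per gene. The submitters' processing notes name STAR, RSEM 1.3.1, DESeq2 and the GRCh37 (hg19) build. RSEM divides reads that fit several genes between them, and whether counting used strand is not given in the sources used here. Where they were counted, overlapping non-coding genes of JAG1, JAG2, NOTCH1 and HEY2 had at most 1 count. The microRNA genes MIR6870 in JAG1, MIR6765 in JAG2 and MIR6795 in NOTCH3 were not among the counted genes. Symbols matched 51996 identifiers. Here expected counts were rounded and 40 spike-in identifiers were left out of library sizes. edgeR 4.0.16 in R 4.3.3 (filterByExpr, minimum count 10, trimmed mean of M values (TMM), quasi-likelihood test, 1 coefficient per group over all 12 libraries) gave adjusted p-values (Benjamini-Hochberg over 15750 genes). SE were derived from the quasi-F statistic. The test was also run on simulated data. Members, pathway list, markers and naming rule were chosen with earlier results of these data known. The rule names all members, per role the 2 largest called changes in DMSO at a mean of at least 50 counts, and other genes called with dBRD9-A or in the interaction at 0.3 or more on the log2 scale. Alternatives were DESeq2 1.42.0, upper-quartile or spike-in scaling, no filter, a fold limit, a replicate block and leaving out each library. Results of 1 pathway gene and 1 marker are not reported here.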

Additional observations from a re-analysis of the deposited data

Results flagged for a closer look

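The interaction, which compares the dBRD9-A responses of the cell states, was called for 4 genes of the pathway. These were 1 of the 8 tested members and 3 of the 41 other tested genes, beside 3.8% of all genes. Nothing is read from this count. For JAG2 the interaction was -0.33 on the log2 scale (edgeR adjusted p = 0.0408), with 3 of 3 treated GFP libraries above those in DMSO. This call did not hold in 11 of the 12 fits without 1 library, with DESeq2 (adjusted p = 0.0592) or with the replicate block (adjusted p = 0.051). For NEURL1B it was -0.92 (adjusted p = 0.000924), and it passed the threshold without any 1 of the 12 libraries and in the other settings run, with adjusted p up to 0.00442. For RBPJ it was 0.20 (adjusted p = 0.0323), but the sign turned with spike-in scaling, to -0.30 (adjusted p = 0.00671), and the call did not hold in 9 of the 12 fits without 1 library. For TLE4 it was -0.21 (adjusted p = 0.0347), and it did not hold in 8 of those 12 fits (largest adjusted p 0.106).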

How the results depend on the processing

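Of the 1084 single-gene values under alternatives, 1013 kept their direction and their side of the threshold. Counts of called members below stand without the share of all genes in the same setting, so nothing is read from them. The number of members called with SMARCB1 in DMSO stayed within 1.5 times the reported count in all settings run. For dBRD9-A in GFP cells it was 5 with spike-in scaling and 0 with a limit of 1 on the size of the log2 change. In SMARCB1 cells it was 0 to 1 when libraries were left out in turn. For SMARCB1 in dBRD9-A it was 3 with the fold limit. For the interaction it was 5 with spike-in scaling, 0 with DESeq2, 0 with the replicate block, 0 with the fold limit and 0 to 1 without 1 library. With spike-in scaling the sign turned for NOTCH1 (0.13 in DMSO, 0.29 with dBRD9-A in GFP cells), NOTCH2 (0.09 in DMSO), HES1 (-0.12 with dBRD9-A in SMARCB1 cells) and RBPJ (0.12 with dBRD9-A in GFP cells, -0.30 for the interaction). Without 1 library, ranges that crossed 0 were -0.11 to 0.00 for NOTCH1 in DMSO, -0.19 to 0.01 for its interaction, and, with dBRD9-A in SMARCB1 cells, -0.07 to 0.04 for JAG2, -0.11 to 0.02 for NOTCH3 and -0.14 to 0.32 for HES1. The cause of these changes was not tested. Spike-in scaling moved the median of all genes to 0.36 with dBRD9-A in GFP cells and to -0.49 in the interaction. How the spike-ins were dosed is not stated in the labels. DESeq2 gave no adjusted p for DLL4, HES1 and HEY1 with dBRD9-A in SMARCB1 cells or for the interaction of DLL4. Fitting only the compared groups does not apply to the interaction. The labels state no pairing of equal replicate numbers. No effect shared by equal numbers was seen, which does not settle whether the samples were paired. Same-numbered deviations correlated at -0.056 to 0.061 over 18 pairs, and 3 of 18 comparisons had the highest value with their own number. With the replicate block the interaction of JAG2 had an adjusted p of 0.051, of RBPJ 0.0517 and of TLE4 0.0599, and no other call changed. Depth limits DLL1, HEY1 and HEY2, whose counts were at most 17 per library.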
